A study of Homo sapiens with 6 samples.

Results

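Chemokines, interleukins and colony-stimulating factors are the secreted proteins with which cells call in and instruct leukocytes, and 88 of the 20811 genes in the table carried the symbols of such proteins. They were taken by name alone: the CC and CXC chemokines, the numbered interleukins, CSF1 to CSF3, and CX3CL1, XCL1, XCL2, LIF, OSM and TSLP where the table held them. Gene expression was measured in HuCCT1, an established human intrahepatic cholangiocarcinoma cell line, to see what an increase of CD90 changes. HuCCT1/CD90+ cells received the lentivirus human THY1-CMV-GFP, and HuCCT1/CD90- cells received the control Lenti-CMV-GFP-2A-Puro-Blank. THY1 encodes CD90. Both viruses were used at an MOI of 40, so lentiviral exposure was common to the groups, and puromycin resistance appears in the name of the blank virus alone. There were 3 libraries of each line, and nothing in the labels says that they came from separate cultures, so the p-values below measure the spread between these libraries, which may be technical. Each group is thus 1 derivative of 1 tumour line, grown without other cells, and the labels do not say whether it was cloned.

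Chemokines bind G protein-coupled receptors and set up gradients along which leukocytes move. The CXC chemokines with a Glu-Leu-Arg motif draw neutrophils through CXCR1 and CXCR2, and CCL2 draws monocytes through CCR2. CSF1 keeps macrophages alive through CSF1R, interleukins act mostly on leukocytes but also on epithelia, and IL6, IL11 and LIF share the signalling subunit gp130, encoded by IL6ST. Biliary epithelium is a known source of several of these proteins during inflammation, and many of their genes have a binding site of the transcription factor NF-kB close to the transcription start.

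The sequences just upstream of 8 of the genes are shown because they hold such a motif and because some of them are nearly identical to each other. Each line gives the 140 bases before the start of the RefSeq gene, 5′ to 3′ on the strand of the gene, in the GRCh38.p14 assembly. Capitals mark GGANTTTCC, an NF-kB type motif, and in IL8 also TGANTCA, an AP-1 type motif, where N is any base.
IL8 (CXCL8), chr4:73740429-73740568, plus strand: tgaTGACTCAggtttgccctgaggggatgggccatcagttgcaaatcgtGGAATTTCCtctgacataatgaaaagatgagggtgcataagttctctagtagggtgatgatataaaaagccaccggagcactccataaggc
CXCL6, chr4:73836538-73836677, plus strand: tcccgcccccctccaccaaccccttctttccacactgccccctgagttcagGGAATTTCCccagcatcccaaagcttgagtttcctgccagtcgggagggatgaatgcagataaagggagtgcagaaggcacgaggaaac
CXCL5, chr4:73998678-73998817, minus strand: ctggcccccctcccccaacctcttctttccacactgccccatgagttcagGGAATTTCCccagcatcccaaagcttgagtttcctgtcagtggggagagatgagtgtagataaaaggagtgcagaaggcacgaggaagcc
CXCL1, chr4:73869253-73869392, plus strand: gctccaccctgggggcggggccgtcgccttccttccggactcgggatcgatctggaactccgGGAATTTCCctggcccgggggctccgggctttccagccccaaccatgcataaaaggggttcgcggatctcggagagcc
CXCL3, chr4:74038690-74038829, minus strand: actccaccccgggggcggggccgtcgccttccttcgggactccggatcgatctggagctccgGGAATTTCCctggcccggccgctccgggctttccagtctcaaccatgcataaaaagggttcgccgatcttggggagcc
CXCL2, chr4:74099196-74099335, minus strand: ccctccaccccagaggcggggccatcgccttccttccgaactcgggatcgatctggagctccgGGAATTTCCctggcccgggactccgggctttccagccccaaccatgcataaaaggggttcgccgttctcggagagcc
IL6, chr7:22727060-22727199, plus strand: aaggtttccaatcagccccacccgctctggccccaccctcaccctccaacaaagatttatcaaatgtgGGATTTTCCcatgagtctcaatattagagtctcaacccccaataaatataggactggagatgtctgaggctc
IL32, chr16:3065263-3065402, plus strand: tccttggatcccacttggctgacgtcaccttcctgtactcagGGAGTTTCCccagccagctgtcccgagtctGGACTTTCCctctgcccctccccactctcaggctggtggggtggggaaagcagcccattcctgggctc

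Of the 88 genes, 63 had a RefSeq promoter (250 bases before to 50 after the start), and GGANTTTCC was found on either strand in 10 of them, 15.9%, against 449 of 27305 promoters in all, 1.64%. The 10 were all 6 CXC genes printed above, IL6, IL32 with 2 matches, CXCL10 and CXCL11. TGANTCA was found in 13 of the 63, 20.6%, against 2120 promoters in all, 7.76%. Matches of the motifs did not overlap in IL8 or CXCL11, the genes that held both, and a match describes the sequence and not a bound factor. Over the printed bases CXCL6 and CXCL5 were identical at 127 of 139 aligned positions (91.4%), and CXCL1 and CXCL3 at 127 of 140 (90.7%). IL8 matched the other 5 CXC genes at 28.6% to 33.8% of positions.

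Each gene was read from 1 amplicon and given in RPM, its reads scaled to a common library size. Because an amplicon's efficiency differs between genes, RPM values are compared here between libraries and never between genes. Depth was 9345680 to 10551516 reads in HuCCT1/CD90- and 8587634 to 9327650 in HuCCT1/CD90+, so that 3 reads, the floor used here, were worth 0.284 to 0.349 RPM. THY1 had 0, 1 and 0 reads in HuCCT1/CD90- and 435, 445 and 680 reads in HuCCT1/CD90+, as the labels have it. Cholangiocyte markers were above the floor in 8 of 8 genes, with KRT7 at 3150 RPM or more and KRT19 at 3042 RPM or more in every library. Their sum per library was 8229 to 9317 RPM in HuCCT1/CD90- against 10589 to 11394 RPM in HuCCT1/CD90+, and KRT18 was higher (log2 fold change 0.97, adjusted p = 0.0018 from limma), also with replicate blocks (adjusted p = 0.036). PTPRC, the gene of the leukocyte antigen CD45, had 0 to 1 reads. Of the 16 leukocyte markers 9 were at the floor in both lines, and their sum per library was 132 to 155 RPM in HuCCT1/CD90- against 90.9 to 109 RPM in HuCCT1/CD90+. CD14 (log2 fold change -3.94, adjusted p = 0.00037 from limma) and LYZ (-2.39, adjusted p = 0.0082, and 0.069 in a fit with replicate blocks) were lower in HuCCT1/CD90+ and CD68 (0.85, adjusted p = 0.0089) and CD79A (1.04, adjusted p = 0.0089) higher. These were 12.5% of the leukocyte list in each direction, against 7.59% of all genes higher and 7.49% lower. Summed fibroblast markers were at 41.8 to 65.3 RPM against 20.4 to 24.7 RPM, with 5 of 8 lower (62.5%, against 7.49% of all genes), of which 2 kept their call with the blocks. Summed endothelial markers were at 14.9 to 23.4 RPM against 1.29 to 1.86 RPM, with CDH5 the 1 gene of 6 that was called (lower, 16.7%, against 7.49% of all genes). Summed hepatocyte markers were 3.78 to 5.99 RPM and 6.004 to 12.4 RPM, with HNF4A higher, APOA1 and SERPINA1 lower (SERPINA1 not with the blocks, adjusted p = 0.071) and ALB at 0 to 1 reads. Of the 7 hepatocyte markers 14.3% were thus higher and 28.6% lower, against the same 7.59% and 7.49% of all genes. The part of these shifts in the results below was not tested, and in bulk RNA fewer cells of a kind and less RNA per cell cannot be told apart.

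In the fit without a block, HuCCT1/CD90+ cells had less mRNA of the monocyte attractant CCL2, the macrophage factor CSF1, the neutrophil attractant CXCL6 and the lymphocyte factor IL7, and more of CCL28, CXCL16, IL32 and IL18. A gene was called when limma on log2(RPM + 1) over all 20811 genes gave an adjusted p (Benjamini-Hochberg) of at most 0.05 and a fold change of at least 1.5. Of the 88 genes 7 were higher in HuCCT1/CD90+ (7.95%) and 6 lower (6.82%), against 7.59% and 7.49% of all genes. With the replicate number as a block the counts were 4 and 3, against 5.24% and 4.86% of all genes. CXCL6 and IL7 were among the calls lost. The calls kept were CCL28, CXCL16, IL18 and IL32 as higher and CCL2, CSF1 and IL24 as lower. More of the set than of all genes was at the floor. Of the 27 members with an average of 1 RPM or more over all libraries, 6 were higher and 6 lower (22.2% each), against 12% and 12.1% of all genes of that level, which only describes the members that were measurable. At the study's thresholds, an unadjusted p of at most 0.05 with the same fold change, 9 were higher and 11 lower, against 10.1% and 9.98% of all genes. The 3 values of one line lay wholly above those of the other in 12 genes that were higher and 13 that were lower in HuCCT1/CD90+, against 17.3% and 17.7% of all genes. The median log2 fold change was 0 over the 88, most of which were at the floor, and 0 over all genes. It was -0.25 over the 27 members averaging 1 RPM or more and -0.0086 over all genes of that level.

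**Figure D1:**
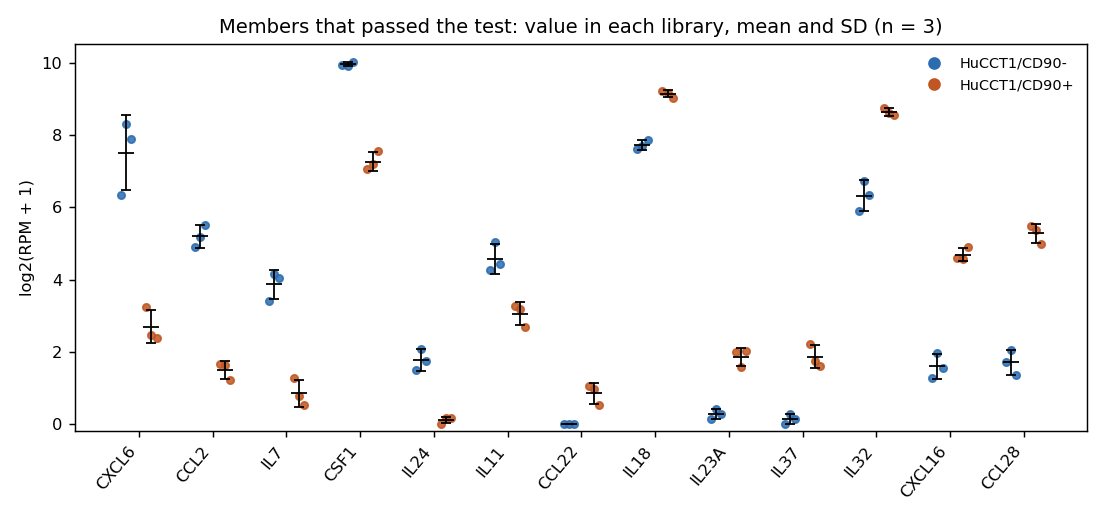
Values of the 13 called genes as log2(RPM + 1) on the vertical axis, with 1 point per library and the mean and SD (n = 3) of each line as bars. The points of the lines do not overlap for any of them, and the SD of CXCL6 in HuCCT1/CD90- is the widest drawn.

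Most of the set was at or under the floor. In all, 49 genes (55.7%, against 32.3% of all genes) had at most 3 reads in every library and 27 of these had no read at all. They took in IL2, IL3, IL4, IL5, IL9, IL13, IL17A, IL17F, IL21, IL22, IL26 and IL31. They also took in 17 of the 25 CC chemokines, the chemokines CXCL9, CXCL11, CXCL12, CXCL13, CXCL14, CXCL17 and XCL2, the interferon lambda genes IL28A, IL28B and IL29, and IL12B, IL16, IL20, IL25, IL27, IL34, IL36A, IL36B, OSM and TSLP. The CC chemokines at the floor were CCL1, CCL4, CCL7, CCL8, CCL11, CCL13 to CCL19, CCL21, CCL23, CCL25, CCL27 and CCL3L3. The 27 genes without reads were not detectable at this depth, and no fold is given for any of the 49. CCL4 and CCL15, picked after their values were seen, had no reads in HuCCT1/CD90- but 3, 2 and 3 reads and 3, 1 and 1 reads in HuCCT1/CD90+. CCL4 had an adjusted p of 0.0043 (0.036 with the block) at a difference under the fold limit on the log2(RPM + 1) scale. CCL4 and CCL15 were called higher with an offset of 0.1 RPM. The 39 genes above the floor in at least 1 library held all 13 calls, and the other 26 were not called.

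CC chemokines were called in both directions. CCL2 had 28.8, 35.3 and 44.7 RPM in HuCCT1/CD90- against 2.14, 2.10 and 1.30 RPM in HuCCT1/CD90+, a ratio of means of 19.6. Every HuCCT1/CD90- value was far above every HuCCT1/CD90+ value, and the log2 fold change was -3.70 (SE 0.22, adjusted p = 0.0016 from limma). CCL28, an epithelial chemokine that attracts plasma cells and T cells to mucosa, went the other way, from 2.27, 3.10 and 1.55 RPM to 43.5, 40.6 and 30.6 RPM. The groups were well apart, with a ratio of 16.6 and a log2 fold change of 3.58 (SE 0.24, adjusted p = 0.0020). CCL2 and CCL28 were also called with the replicate number as a block (adjusted p = 0.033 and 0.017) and in all 6 fits that left out 1 library.

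None of the other CC chemokines averaging 1 RPM or more was called. CCL20, which draws cells bearing CCR6, had 6.44, 26.6 and 20.6 RPM and then 5.79, 3.38 and 4.67 RPM. The lowest HuCCT1/CD90- library was just above the highest HuCCT1/CD90+ library, and the log2 fold change of -1.57 (95% confidence interval -3.11 to -0.03) had an adjusted p of 0.153. The adjusted p was 0.024 without HuCCT1/CD90- replicate 1 and up to 0.345 with another library left out. CCL22, CCL3, CCL24, CCL26 and CCL5 were picked for description after their values were seen. CCL22, a ligand of CCR4, had no reads in HuCCT1/CD90- and 10, 8 and 4 reads in HuCCT1/CD90+, at least 2.53-fold higher when set against the floor. It was called (adjusted p = 0.029), though not with the block (adjusted p = 0.086) and in 1 of the 6 leave-one-out fits, that without HuCCT1/CD90+ replicate 3. CCL3 had no reads in HuCCT1/CD90- and 17, 4 and 12 reads in HuCCT1/CD90+ (adjusted p = 0.059). The adjusted p was 0.0122 without HuCCT1/CD90+ replicate 2 and up to 0.173 with another library left out. CCL3 shares near-identical sequence with CCL3L3, so reads between them are uncertain. CCL24 (1.23 to 1.61 RPM and 0.54 to 0.87 RPM) had an adjusted p of 0.031 with a log2 fold change of -0.54, under the fold limit on the log2(RPM + 1) scale. Its ratio of means was 2.09, and it was called lower with an offset of 0.1 RPM. CCL26 and CCL5 overlapped between the lines.

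The 6 CXC genes printed above belong to a cluster on chromosome 4, in the order IL8, CXCL6, CXCL1, CXCL5, CXCL3 and CXCL2, and all 6 encode ligands of CXCR2. Of the 6, 1 was called, as lower (16.7%, against 7.49% of all genes), and differences in change between them were not tested. CXCL6 had 80.1, 319 and 237 RPM in HuCCT1/CD90- and 8.36, 4.54 and 4.23 RPM in HuCCT1/CD90+, a ratio of 37.1. The groups were far apart although HuCCT1/CD90- replicate 1 was well under the other libraries of its line, and the log2 fold change was -4.83 (SE 0.62, adjusted p = 0.0115). The call was lost with the replicate block (adjusted p = 0.077) and without HuCCT1/CD90- replicate 3 (0.0501), HuCCT1/CD90+ replicate 2 (0.0502) or HuCCT1/CD90+ replicate 3 (0.0535). CXCL5, whose upstream sequence is 91.4% identical to that of CXCL6, had 110, 230 and 221 RPM and then 376, 163 and 253 RPM. Its libraries overlapped between the lines, with a log2 fold change of 0.49 (95% confidence interval -0.74 to 1.72, adjusted p = 0.57).

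CXCL1 had 2.09, 15.4 and 16.1 RPM in HuCCT1/CD90- and 0.64, 0.93 and 0.98 RPM in HuCCT1/CD90+. The groups did not overlap, but replicate 1 of HuCCT1/CD90- lay nearer to the HuCCT1/CD90+ libraries than to the others of its line. The log2 fold change of -2.37 had an adjusted p of 0.119, and -3.18 with an adjusted p of 0.0030 without that library. With another library left out the adjusted p was up to 0.274. CXCL3, 90.7% identical to CXCL1 upstream, had 4.83, 21.4 and 19.0 RPM and then 12.01, 8.27 and 11.9 RPM, overlapping between the lines (log2 fold change -0.25, 95% confidence interval -1.87 to 1.38). IL8, now named CXCL8, had 40.5, 105 and 123 RPM and then 23.7, 16.0 and 22.5 RPM, with no overlap. Its log2 fold change of -1.93 (SE 0.49) had an adjusted p of 0.066, and 0.0145 without HuCCT1/CD90- replicate 1. With another library left out the adjusted p was up to 0.178. CXCL2, chosen after its values were seen, had 1.33, 8.67 and 7.76 RPM and then 3.65, 4.77 and 4.56 RPM, with HuCCT1/CD90- replicate 1 under and the other libraries of that line over all HuCCT1/CD90+ values. Its adjusted p was 1 with all libraries and 0.042 without that library, at a log2 fold change of -0.13 and -0.80. No other leave-one-out fit called CXCL2. Coding sequences within the pairs CXCL5 and CXCL6 and within CXCL1, CXCL2 and CXCL3 are closely related, so their split of reads is uncertain, and the positions of the amplicons were not used here.

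**Figure D2:**
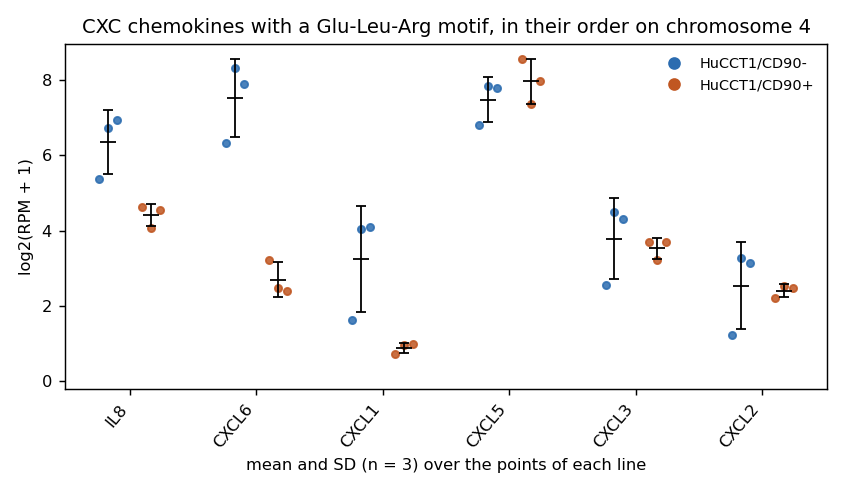
The 6 CXC chemokines with a Glu-Leu-Arg motif whose upstream bases are printed, in their order on chromosome 4 with the genes between them left out, as log2(RPM + 1) with 1 point per library and the mean and SD (n = 3) of each line. CXCL6, IL8 and CXCL1 sit lower in HuCCT1/CD90+, while CXCL5, CXCL3 and CXCL2 overlap between the lines.

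CXCL16 was the CXC chemokine called in the other direction. It is made as a membrane-bound protein that is shed and binds CXCR6. It had 1.42, 2.89 and 1.94 RPM in HuCCT1/CD90- and 23.4, 22.7 and 29.0 RPM in HuCCT1/CD90+, a ratio of 12.01. The libraries of the lines were well apart, with a log2 fold change of 3.10 (SE 0.21, adjusted p = 0.0022, and 0.031 with the block). Of the 14 CXC chemokines 1 was higher and 1 lower (7.14% each, against 7.59% and 7.49% of all genes), and 6 were at the floor in both lines. CXCL10, an interferon-induced ligand of CXCR3, had at most 4 reads in a library.

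Among the interleukin 1 family, IL18, which is stored as a precursor in epithelia and raises interferon gamma in lymphocytes, had 195, 206 and 233 RPM in HuCCT1/CD90- and 599, 581 and 527 RPM in HuCCT1/CD90+. The libraries were close together within each line and apart between the lines, and the ratio of 2.69 (log2 fold change 1.42, SE 0.09, adjusted p = 0.0018) was called with the block as well (adjusted p = 0.036). IL37, an inhibitory member of the family, had 0, 2 and 1 reads in HuCCT1/CD90- and 34, 20 and 19 reads in HuCCT1/CD90+. Its reads were 27.1-fold more frequent (Clopper-Pearson 95% interval 8.91 to 134, counting error only), with an adjusted p of 0.0078 and of 0.059 with the block. IL1A had 15.6, 59.7 and 50.7 RPM and then 38.1, 32.0 and 33.1 RPM, and IL1B had 21.1, 67.5 and 53.6 RPM and then 32.3, 25.5 and 22.9 RPM. Both genes encode the alarm cytokines that bind IL1R1, and both overlapped between the lines, with HuCCT1/CD90- replicate 1 lowest of all libraries (log2 fold change -0.08 with an adjusted p of 1, and -0.66 with an adjusted p of 0.50). IL33 had 1, 9 and 5 reads against 0, 0 and 0 (adjusted p = 0.197 in limma and 0.026 in DESeq2). IL36G had at most 4 reads in a library, and neither gene could be compared closely at such counts.

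IL32, which carries the pair of NF-kB type matches shown above, rose from 58.8, 106 and 80.9 RPM to 434, 394 and 375 RPM. It is a proinflammatory cytokine made by epithelia, T cells and NK cells. The values of the lines were well separated, with a ratio of 4.90 and a log2 fold change of 2.32 (SE 0.24, adjusted p = 0.0064, and 0.0493 with the block).

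Of the 5 cytokines that signal through gp130, 1 was called lower (20%, against 7.49% of all genes) and 0 higher. IL11 had 18.1, 32.2 and 20.5 RPM in HuCCT1/CD90- and 8.68, 8.15 and 5.43 RPM in HuCCT1/CD90+, a ratio of 3.18 without overlap. The log2 fold change of -1.53 (SE 0.29) had an adjusted p of 0.031, but 0.079 with the block and 0.0560 to 0.0889 when any 1 of the 6 libraries was left out. IL6 had 5.59, 25.5 and 19.6 RPM and then 5.36, 5.82 and 5.64 RPM. HuCCT1/CD90- replicate 1 was within the HuCCT1/CD90+ range and the other libraries of that line well above it (log2 fold change -1.21, adjusted p = 0.26). The adjusted p was 0.0096 without replicate 1 of HuCCT1/CD90- and up to 0.482 with another library left out. LIF had 30.5, 76.8 and 49.5 RPM and then 47.2, 56.8 and 44.2 RPM, with the HuCCT1/CD90+ values inside the HuCCT1/CD90- range and a log2 fold change of 0.01 (95% confidence interval -0.98 to 1.00).

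IL7, a survival factor for lymphocytes, had 9.67, 16.7 and 15.5 RPM in HuCCT1/CD90- and 1.39, 0.70 and 0.43 RPM in HuCCT1/CD90+. The ratio of means was 16.6, with no overlap and a log2 fold change of -3.02 (SE 0.30, adjusted p = 0.0058, and 0.0585 with the block). IL15, which acts on NK and memory T cells and was picked after its values were seen, overlapped between the lines, with means of 5.87 ± 1.51 and 8.75 ± 2.91 RPM (SD, n = 3).

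IL23A, the subunit specific to interleukin 23, had 1, 3 and 2 reads in HuCCT1/CD90- and 28, 17 and 28 reads in HuCCT1/CD90+. It was called (log2 fold change 1.60, SE 0.16, adjusted p = 0.0055), though not with the block (adjusted p = 0.054). IL12A, picked after its values were seen, had 0, 1 and 0 reads and then 24, 5 and 14 (adjusted p = 0.072, and called without HuCCT1/CD90+ replicate 2, at an adjusted p of 0.028). With another library left out its adjusted p was up to 0.195. IL12B, the subunit that IL23A and IL12A need to form interleukin 23 and interleukin 12, was at the floor in both lines.

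IL24, a cytokine of the interleukin 10 family, had 19, 30 and 24 reads in HuCCT1/CD90- and 0, 1 and 1 in HuCCT1/CD90+. Its reads were 32.8-fold less frequent (Clopper-Pearson 95% interval 8.76 to 276, counting error only), with a log2 fold change of -1.66 (SE 0.17, adjusted p = 0.0062, and 0.031 with the block). IL10 had 3, 11 and 6 reads and then none, with an adjusted p of 0.092, and IL19, IL17B and IL17C had at most 5 reads in a library.

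Of the colony-stimulating factors, CSF1 had 994, 971 and 1049 RPM in HuCCT1/CD90- and 133, 146 and 187 RPM in HuCCT1/CD90+. The 3 libraries of HuCCT1/CD90- were close together and the ratio was 6.46 (log2 fold change -2.70, SE 0.14, adjusted p = 0.0012, and 0.019 with the block). CSF2, the granulocyte-macrophage factor, had 4.55, 19.8 and 9.31 RPM and then 13.3, 10.0 and 12.4 RPM, the latter inside the range of the former (log2 fold change 0.27, 95% confidence interval -1.15 to 1.70). CSF3, the granulocyte factor, picked after its values were seen, had 9, 111 and 56 reads and then 0, 1 and 0. No library overlapped, but the spread within HuCCT1/CD90- was wide, and the adjusted p was 0.120 with all libraries and 0.022 without HuCCT1/CD90- replicate 1. With another library left out the adjusted p was up to 0.276.

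**Figure D3:**
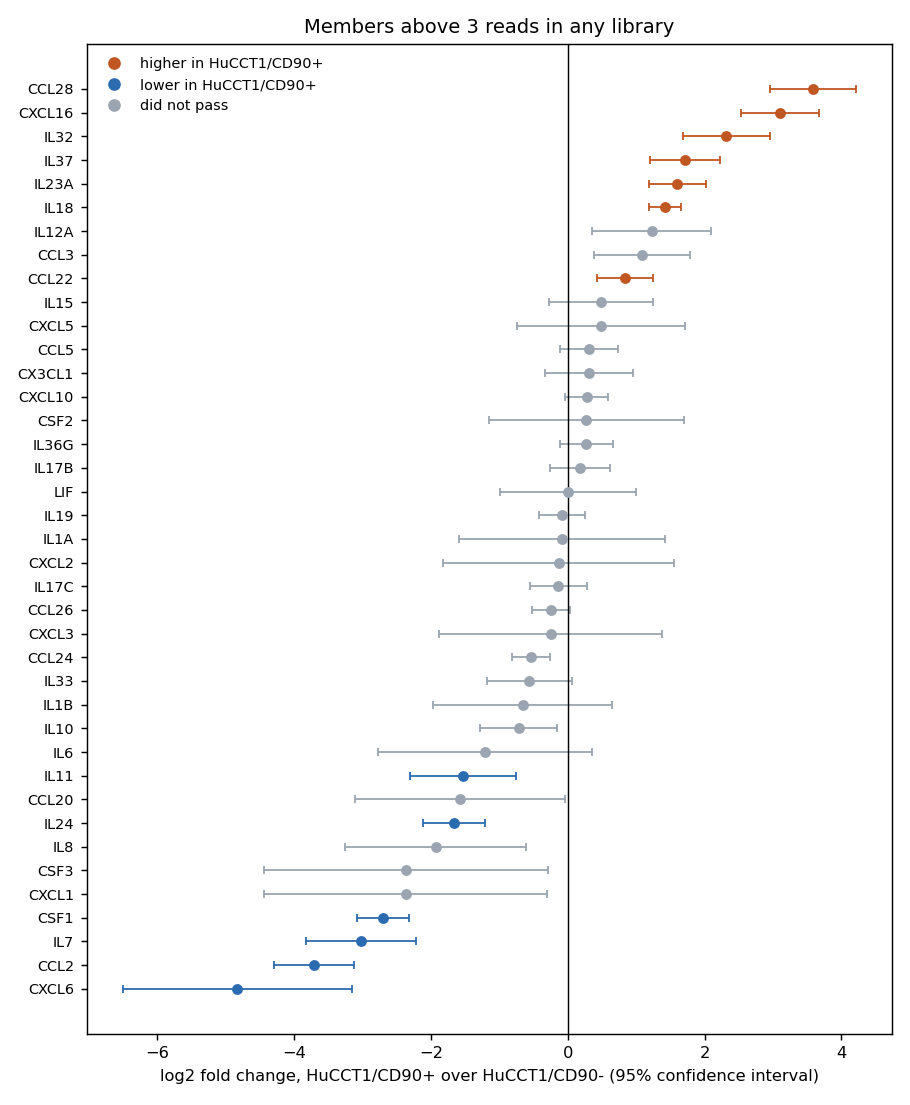
Log2 fold changes of the 39 genes above the floor, HuCCT1/CD90+ over HuCCT1/CD90-, on the log2(RPM + 1) scale with 95% confidence intervals from limma. The intervals of CXCL1, CSF3, IL6, CXCL2, CXCL3 and IL1A are all wider than those of CSF1, IL18 and CCL28.

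The same library stood low for many of these genes. Of the 20 members that averaged 5 RPM or more in HuCCT1/CD90-, replicate 1 was at or under 0.5 of the mean of the other 2 libraries in 13 (65%) and the lowest of the 3 in 19 (95%). Over all genes of such a level the shares were 161 of 9961 (1.62%) and 42.4%, and the median ratio of replicate 1 to the others was 0.352 in the set and 0.960 over all genes. The ratio was lowest for CSF3 (0.0986), CXCL1 (0.132), CXCL2 (0.162), CXCL3 (0.239), IL6 (0.248) and CCL20 (0.273). It was 0.283 for IL1A, 0.288 for CXCL6, 0.313 for CSF2, 0.349 for IL1B, 0.355 for IL8, 0.483 for LIF and 0.489 for CXCL5. It was nearer to 1 for IL11 (0.687), CCL2 (0.720), IL18 (0.889) and CSF1 (0.984), and the exception to the lowest place was CSF1. In HuCCT1/CD90+ replicate 1 was at or under 0.5 in 0 of 16 members. Of the 13 genes, 11 had a RefSeq promoter, and 7 of these held GGANTTTCC, as did 1 of the 2 remaining genes of that level with a promoter and 9 of the 28 members above the floor with one. These ratios are a description of 1 library. Its total of 10551516 reads was the highest of the 6, and nothing in the labels sets it apart.

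**Figure D4:**
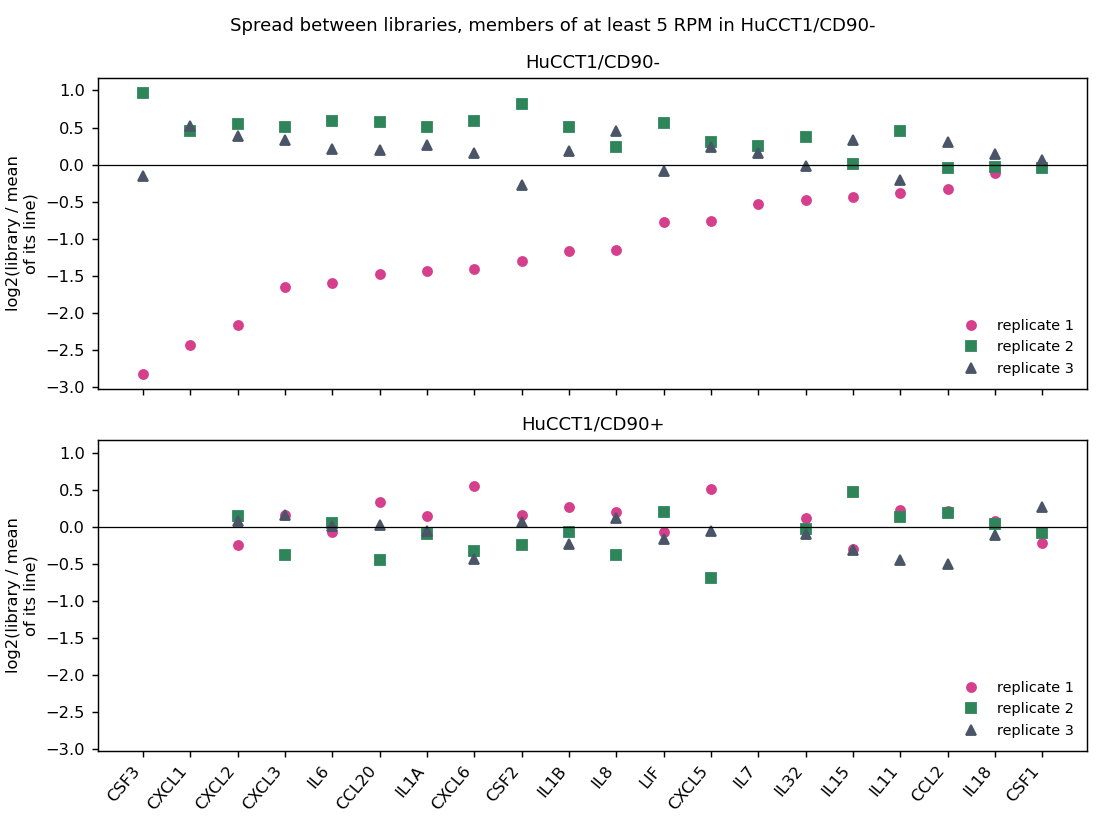
For the 20 genes that averaged 5 RPM or more in HuCCT1/CD90-, the log2 ratio of each library to the mean of its line, in order of the ratio of replicate 1. A gene with fewer than 30 reads over a line is not drawn in that line's panel. Replicate 1 of HuCCT1/CD90- runs under the other libraries for every gene but CSF1, and no library does so in HuCCT1/CD90+.

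Without that library 12 of the 88 genes were called lower in HuCCT1/CD90+ and 6 higher, against 5.96% and 5.64% of all genes in the same fit. The library was singled out from the values of these same genes, so the count of lower genes is no independent result. With any other library left out that count was 4 or 5. The genes called lower without HuCCT1/CD90- replicate 1 were CCL2, CCL20, CCL24, CSF1, CSF3, CXCL1, CXCL2, CXCL6, IL24, IL6, IL7 and IL8, of which 5 were among the 6 called with all libraries, and IL11 was not. CCL22 was the gene lost among those higher. The count tests on the recovered reads gave, of the 26 members that edgeR kept, 11 lower (42.3%) and 6 higher (23.1%), against 17.3% and 17.5% of the 12070 genes it kept. DESeq2 gave 13 lower (31.0%) and 9 higher (21.4%) of 42 members with an adjusted p, against 14.3% and 15.1% of 14399 genes. Members that pass a filter on low counts describe the measurable ones alone. CXCL1, IL8, IL6 and CCL20 were lower in both. IL1B was lower in edgeR (log2 fold change -0.81, adjusted p = 0.023) but not in DESeq2 (adjusted p = 0.187). CSF3, IL10 and IL33 were lower and CCL3, CCL22 and IL12A higher in DESeq2 alone, and edgeR did not keep these genes. With the replicate block 4 genes were higher (CCL28, CXCL16, IL18 and IL32) and 3 lower (CCL2, CSF1 and IL24), against 5.24% and 4.86% of all genes in that fit.

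Of the 21 chemokine receptors measured, 16 were at the floor in both lines, among them CCR2, CXCR1, CXCR2 and CXCR6, which bind CCL2, the Glu-Leu-Arg CXC chemokines and CXCL16. CXCR4, the receptor of CXCL12, was higher in HuCCT1/CD90+, from 29.5, 34.3 and 40.6 RPM to 87.1, 73.0 and 96.4 RPM (log2 fold change 1.28, SE 0.16, adjusted p = 0.0114). It was the 1 receptor of the list that was higher (4.76%, against 7.59% of all genes), and the 1 that was lower was CCR7, named after its values were seen, at 0.58 to 0.86 RPM in HuCCT1/CD90- against no reads in HuCCT1/CD90+.

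Of 47 interleukin and colony-stimulating factor receptors 13 were higher (27.7%) and 6 lower (12.8%), against 7.59% and 7.49% of all genes, and 13 were at the floor in both lines. IL1R2, a decoy that binds interleukin 1 without signalling, had 0, 0.32 and 0.19 RPM in HuCCT1/CD90- and 12.5, 12.9 and 10.4 RPM in HuCCT1/CD90+ (log2 fold change 3.47, SE 0.14, adjusted p = 0.00070). CRLF2, a subunit of the TSLP receptor, had 0.66, 0.96 and 0.97 RPM and then 6.65, 10.6 and 8.36 RPM (log2 fold change 2.34, adjusted p = 0.0030). IL1RL2, the receptor of the interleukin 36 proteins, rose from 3.03, 3.53 and 3.10 RPM to 11.5, 10.5 and 11.5 RPM (log2 fold change 1.53, adjusted p = 0.00073). All 3 were clear of overlap. IL7R, the receptor chain of IL7, fell from 31.4, 28.0 and 26.9 RPM to 6.65, 6.17 and 7.38 RPM (log2 fold change -1.94, SE 0.09, adjusted p = 0.00090), the same direction as IL7 itself. CSF1R, which binds CSF1, was not called and stayed between 0.57 and 1.30 RPM in all libraries.

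The following receptors were named after their values were seen. IL1R1, the signalling receptor of IL1A and IL1B, fell from 12.1, 9.63 and 15.7 RPM to 2.79, 3.96 and 4.56 RPM (log2 fold change -1.49, adjusted p = 0.020, and 0.055 with the block). SIGIRR, an inhibitory receptor of the same family, rose from 42.5, 46.2 and 43.3 RPM to 90.9, 137 and 120 RPM (log2 fold change 1.36, adjusted p = 0.0101). IL18R1, which binds IL18, had 0.28, 0 and 0.29 RPM and then 2.90, 2.56 and 1.74 RPM (adjusted p = 0.0101, and 0.060 with the block), while its partner IL18RAP was at the floor in both lines. IL6ST, the common subunit for IL6, IL11 and LIF, fell from 181, 192 and 209 RPM to 141, 116 and 126 RPM (log2 fold change -0.60, adjusted p = 0.020, and 0.091 with the block). IL4R, IL27RA and LIFR were the other 3 lower receptors. CSF2RA, IL15RA, IL17RE, IL20RA, IL22RA1, IL28RA, IL31RA and IL6R were the other 8 higher ones. With a library left out the counts over the list were 10 to 11 higher and 2 to 4 lower, so not every receptor named kept its call. With the block 10 receptors of the list were higher and 3 lower, against 5.24% and 4.86% of all genes in that fit. IL1R1 was called in 1 of the 6 leave-one-out fits, that without HuCCT1/CD90- replicate 2 (adjusted p up to 0.067 in the others), and IL6ST in 2 of 6 (up to 0.079).

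Of 13 genes that process or block interleukin 1, 2 were higher (15.4%, against 7.59% of all genes). The count was 4 in edgeR, against 17.5% of the genes it kept, and 4 in DESeq2, against 15.1% of the genes with an adjusted p. It was 3 with the block, against 5.24% of all genes, and 1 to 2 with a library left out. It was also 4 with median centring and in the fit of genes averaging 1 RPM or more, where the share over all genes was not counted. IL1RN, the secreted antagonist of IL1R1, had 3.70, 7.28 and 5.14 RPM in HuCCT1/CD90- and 108, 101 and 123 RPM in HuCCT1/CD90+, far apart (log2 fold change 4.17, SE 0.24, adjusted p = 0.0015, and 0.026 with the block). NLRP3, an inflammasome sensor, had 1.04, 0.32 and 0.49 RPM and then 6.22, 3.49 and 5.86 RPM (log2 fold change 1.93, adjusted p = 0.0144). It was called in 2 of the 6 leave-one-out fits, those without HuCCT1/CD90- replicate 1 or HuCCT1/CD90+ replicate 2, with an adjusted p of up to 0.062 in the others. CASP1, which cleaves the precursors of IL1B and IL18, was between 3.32 and 5.34 RPM in all libraries and was not called, and IL18BP, a soluble blocker of IL18, had at most 0.49 RPM.

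Of 24 NF-kB factors and regulators, all above the floor, limma called 2 higher (8.33%) and 0 lower, against 7.59% and 7.49% of all genes, and at an unadjusted p under 0.05 there were 3 higher and 5 lower. edgeR gave 4 higher and 4 lower, against 17.5% and 17.3% of the genes it kept. DESeq2 gave 3 higher and 4 lower, against 15.1% and 14.3% of the genes with an adjusted p. With the block there were 2 higher and 1 lower, against 5.24% and 4.86% of all genes. The fit of genes averaging 1 RPM or more gave 2 higher and 4 lower, and the share over all genes of that fit was not counted. IRAK1, a kinase downstream of the IL1 and Toll-like receptors, had 173, 192 and 141 RPM and then 273, 339 and 275 RPM (log2 fold change 0.81, adjusted p = 0.033), but was called in 0 of the 6 leave-one-out fits (adjusted p up to 0.092). NFKBIB, an inhibitor of NF-kB, had 31.8, 43.4 and 38.7 RPM and then 60.1, 57.5 and 59.2 RPM (log2 fold change 0.63, adjusted p = 0.033, and 0.108 with the block). NFKBIA, BCL3 and TNFAIP3, which NF-kB itself induces and which were named after their values were seen, did not pass (adjusted p = 0.077, 0.063 and 0.40). NFKBIB was called in 1 leave-one-out fit, that without HuCCT1/CD90- replicate 2 (adjusted p up to 0.109 in the others). BCL3 and TNFAIP3 were the 2 genes of this list, of 21 that averaged 5 RPM or more in HuCCT1/CD90-, in which replicate 1 was at or under 0.5 of the other libraries, and the median ratio over the 21 was 0.775. Of 19 JAK-STAT and SOCS genes 1 was higher and 1 lower (5.26% each). TYK2, a kinase used by several cytokine receptors, had 82.5, 122 and 106 RPM and then 62.5, 54.7 and 62.9 RPM (log2 fold change -0.76, adjusted p = 0.045, and 0.145 with the block), and was called in 1 of the 6 leave-one-out fits, that without HuCCT1/CD90- replicate 1. CISH, an inhibitor that STAT5 induces and the gene that was higher, had 0.85, 0.64 and 0.87 RPM and then 2.47, 2.56 and 2.93 RPM (adjusted p = 0.0028) and was named after its values were seen.

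**Figure D5:**
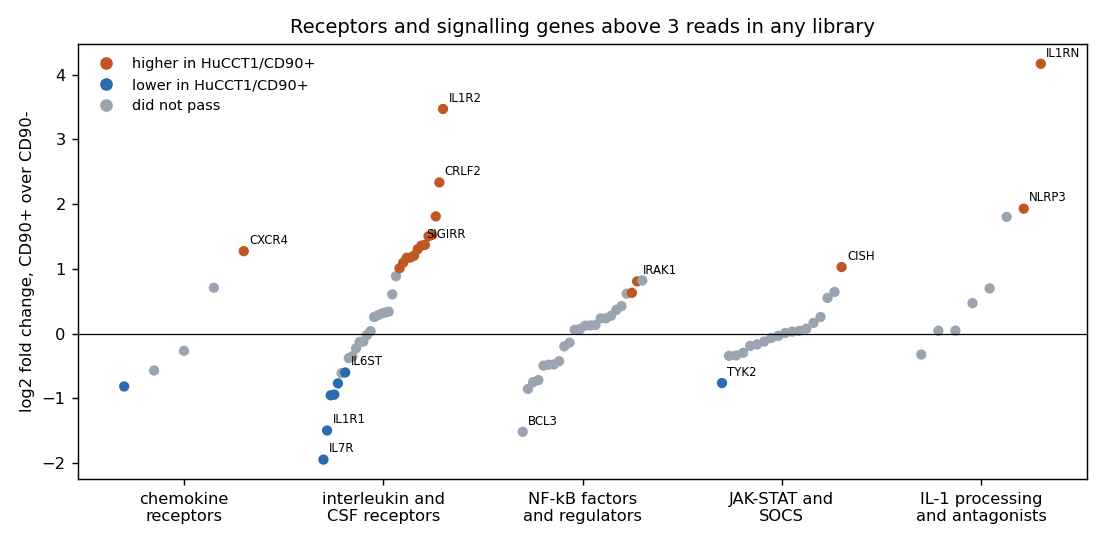
Log2 fold changes on the log2(RPM + 1) scale of the receptor, NF-kB, JAK-STAT and interleukin 1 processing genes above 3 reads in any library, 1 point per gene, ordered within each list. IL1RN, IL1R2 and CRLF2 lead the genes that were higher in HuCCT1/CD90+, IL7R and IL1R1 those that were lower, and BCL3 is the lowest grey point.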

How the data were processed

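Total RNA of 3 HuCCT1/CD90- and 3 HuCCT1/CD90+ libraries was profiled with the Ion AmpliSeq Transcriptome panel on an Ion GeneStudio S5 Prime instrument. Amplicon reads were counted in Torrent Suite (ampliSeqRNA plugin), and the authors deposited RPM for 20811 genes, scaled by library size and not filtered. The submitters' processing notes name the genome build hg19 and the Transcriptome Analysis Console. A value read over 1 short amplicon depends on the isoforms that hold it, and needs no length correction.

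Whole reads were recovered from the RPM steps for 100% of the values (tolerance 0.0006 RPM). PCR reads without molecular identifiers are not independent molecules, so the floor of 3 reads and the intervals cover counting error only. Any 2 libraries differed by more than sampling noise. Values were taken to log2(RPM + 1), a scale that understates the change of low genes, and tested with limma 3.58.1 (lmFit, eBayes) in R 4.3.3 over all genes. Adjusted p-values come from this fit unless named otherwise. The method was tested on simulated data. Alternatives were an offset of 0.1 or 5 RPM, keeping genes averaging 1 RPM or more, quantile normalization, median centring, trend and robust eBayes, a replicate block, leaving out each library, a fold change of 2, edgeR 4.0.16 (quasi-likelihood, TMM, filterByExpr), DESeq2 1.42.0, and removal of the median change of the 50 nearest genes on the chromosome.

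The deviations of same-numbered libraries from their line means correlated with r = 0.209, 0.320 and 0.178, and other pairs with -0.294 to 0.0706. The replicate numbers may thus pair the libraries, but the default calls and adjusted p-values come from an unblocked fit. Pairing was taken into account only in the alternative that had a block. Neither labels nor methods say what the replicate numbers mark. Genes named are called members with a mean of at least 1 RPM in a line, uncalled members with at least 10 RPM, and up to 4 called genes per receptor or signalling list with the largest change and at least 5 RPM, with exceptions stated in the text. CXCL10, IL10, IL17B, IL17C, IL19, IL33, IL36G, CSF1R, CASP1 and IL18BP were also named after their values were seen. The members and lists were chosen with earlier results of these data known. Promoter sequences are from RefSeq.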

Additional observations from a re-analysis of the deposited data

How the results depend on the processing

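Counts of called genes moved by more than 1.5 times under several settings. Against 7 higher, there were 11 with an offset of 0.1 RPM, 4 with an offset of 5 RPM, 4 with the replicate block, and 6 to 8 with a library left out. Against 6 lower, there were 11 when genes averaging under 1 RPM were left out, 10 with median centring, 3 with the block, 11 in edgeR, 13 in DESeq2, and 4 to 12 with a library left out, the 12 without HuCCT1/CD90- replicate 1. The higher count under DESeq2 was 9. At the study's thresholds, 9 higher became 4 with an offset of 5 RPM, and 11 lower became 6 with that offset, 6 with the block and 6 to 18 with a library left out, the 18 without HuCCT1/CD90- replicate 1. In the receptor and signalling lists, 19 higher in all became 12 with an offset of 5 RPM, and 8 lower became 5 with that offset, 5 with the block, 2 at a minimum fold change of 2, and 3 to 6 with a library left out. Causes were not tested beyond what each setting changes itself. The block changed no call of a named member other than those given beside the results. Of the comparisons of 22 named members over 16 alternatives, 306 kept direction and side of the threshold, 20 gained a call, 14 lost it and 12 changed sign. The sign changes were all in genes without a call. With a library left out, CSF2 ranged from -0.19 to 0.76, CXCL3 from -0.87 to 0.10, IL1A from -0.67 to 0.27 and LIF from -0.32 to 0.33. LIF, at 0.01 with all libraries, was -0.023 under quantile normalization, -0.019 under median centring, -0.074 in edgeR, -0.067 in DESeq2 and -0.10 with the neighbours' change removed. With that removal IL8 (neighbours' median 0.41) was called, at -2.32 with an adjusted p of 0.047. The count of 13 genes with a low replicate 1 was 13 at a mean limit of 1 RPM and 11 at 10 RPM, limits chosen after seeing the data. Genes at a few reads rest on the offset and the depth of 8587634 to 10551516 reads.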
